A study of Mus musculus with 8 samples.

Results

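Carbonic anhydrase 1 (Car1) and 9 genes of the erythroid program were followed in single hematopoietic stem cells (HSCs) from bone marrow of mice labelled wild type (WT) or Med23-deficient (KO). The 10 genes were listed by name, and 8 of them (Car1, Car2, Gata1, Klf1, Epor, Tfrc, Zfpm1 and Gfi1b) were among the 10720 genes of the deposited table. The globin genes Hba-a1 and Hbb-b1 were not analysed here. The list had been drawn up with Car1 and single cells of these data in view, so the levels of its genes are given as descriptions. One cell was set apart by rule, that with the most Car1 transcripts.

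All mice were adult C57BL/6 animals. Med23 is a subunit of the Mediator complex, and in the study's main model a floxed Med23 allele was removed with Mx1-cre, whose promoter is switched on by interferon and so by poly(I:C). Control littermates in that model carried the floxed allele without Cre. The labels of the single-cell libraries name the genotype but neither the Cre line nor the number of mice. Cells were sorted as LSK cells (lineage-negative, Sca-1+, Kit+) that were CD150+, CD34- and CD48-, then picked by hand and given a barcoded primer each. Transcripts were counted by unique molecular identifiers (UMIs). The labels list 4 libraries per genotype, but the cell names give only the genotype, so each genotype is 1 pool of cells with no replicate and no test was possible.

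Of 586 cells, 493 had at least 2000 genes and 20000 UMIs in the table and were kept, 259 labelled WT and 234 labelled KO. They held 20038 to 496293 UMIs per WT cell (median 59649) and 20027 to 467384 per KO cell (median 50281). The targeted gene did not separate the labels, with 122 Med23 UMIs under WT against 117 under KO. The log2 ratio was 0.35 (95% counting interval -0.03 to 0.73). It was positive in 8 of 12 alternative ways of processing. KO cell 126 alone carried 28 of the 117, and the value fell to -0.04 once this cell was left out. Limits of 3000 genes and 30000 UMIs per cell gave -0.40. Med23 was found in 47 WT and 27 KO cells. The paper reports efficient Med23 removal after poly(I:C) in the main model. Whether these counts include transcripts of a deleted allele was not tested. The cells are therefore called by their labels. Transcripts of an oocyte gene list passed 1000 CPM (UMIs of a gene per 1000000 UMIs of the cell or pool) in 66 WT cells and 2 KO cells that were kept. That list had 24 of 25 genes in the table, summing to 2555 CPM in WT and 127 CPM in KO. Its part in the results that follow was not tested, and for the 8 genes a value without those cells is given where it left the counting interval. A ratio is pooled CPM of the KO label over the WT label, and each interval covers counting error only, not differences between cells, mice or libraries.

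Red cell formation from multipotent progenitors runs through a small circuit of transcription factors. Gata1 and its cofactor Zfpm1 (FOG-1) work with Klf1 and with the repressor Gfi1b to turn on genes for heme, globin and the red cell membrane, while the receptor Epor passes on the survival signal of erythropoietin. The transferrin receptor Tfrc brings in the iron that heme needs. Carbonic anhydrases convert carbon dioxide and bicarbonate; Car2 is made by many blood cells, and Car1 is an abundant protein of red cells and a marker of committed erythroid progenitors.

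Car1 was nearly absent from every cell except 1. The WT pool held 3 Car1 UMIs in 2 cells, whereas the KO pool held 989 in 22 cells. Of these 989 UMIs, 955 (96.6%) lay in the KO cell numbered 143, where Car1 reached 9822 CPM (95% interval 9209 to 10465). The other kept KO cells had at most 10 Car1 UMIs, and the highest WT cell had 2. The pooled log2 ratio was 8.77 (interval 7.22 to 11.05). Without that single cell, the KO pool held 34 Car1 UMIs and the log2 ratio was 3.92 (interval 2.25 to 6.27). Over all genes, 6.98% were at least 2-fold higher in the KO pool, and 0.802% had more than 50% of their UMIs over both pools in 1 cell.

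**Figure D1:**
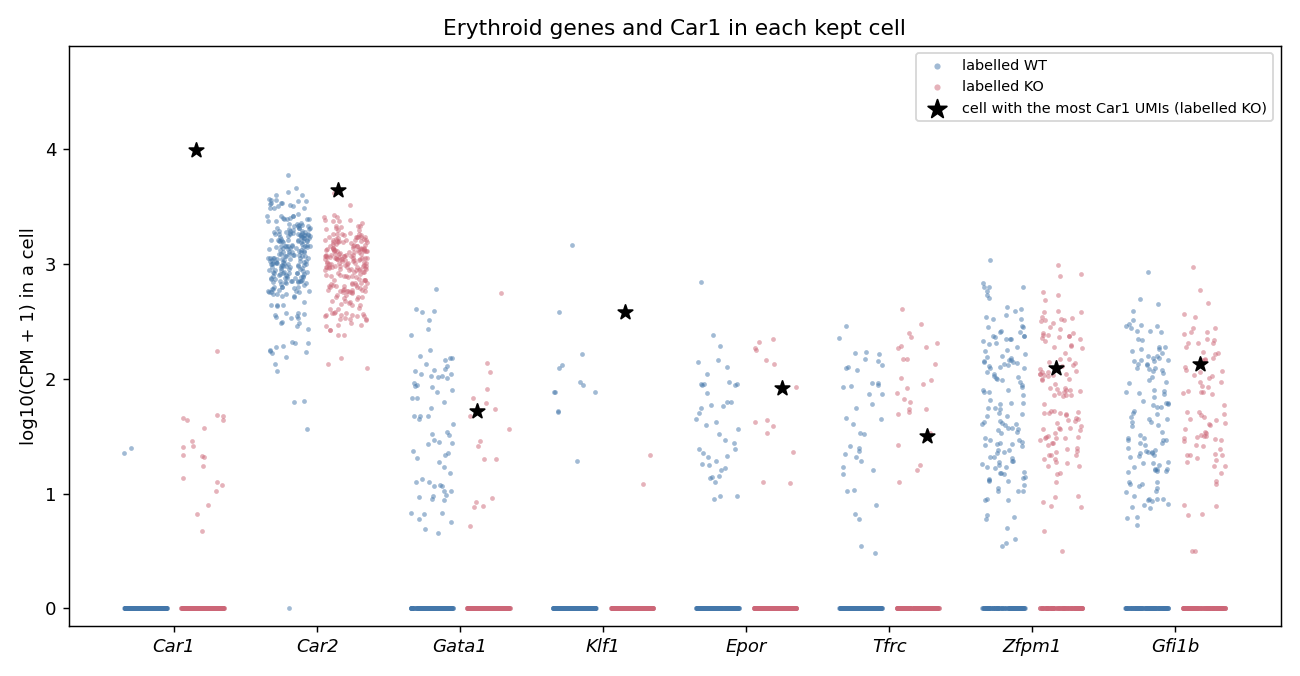
Level of each gene in each kept cell, as log10(CPM + 1), with 259 cells labelled WT in blue, 234 labelled KO in red and the cell with the most Car1 UMIs as a black star. Car2 was found in nearly every cell, while Car1 stood at 9822 CPM in the starred cell and at 0 in most others.

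The few Car1 UMIs outside cell 143 were not spread evenly over the KO cells. In the whole table, cells below the depth limits included, 28 KO cells had a Car1 UMI, 23 of them exactly 1. All but 1 carried numbers from 68 to 147. In that run of numbers, 26 of the 79 other cells (32.9%) had Car1, with 39 UMIs in all, which is 4.08% of the count in cell 143. Outside it, 1 of 202 KO cells (0.495%) had Car1, namely cell 279. Cell 142, next in number to cell 143, held 10 of these UMIs, and cell 144 held 2. The median total of the cells was 39598 UMIs inside the run and 40959 outside it. The run was itself drawn from the numbers of the KO cells with Car1, leaving out only cell 279. The contrast between the shares inside and outside it is therefore a description. A cell number is not a library label, and what the run of numbers stands for was not tested.

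**Figure D2:**
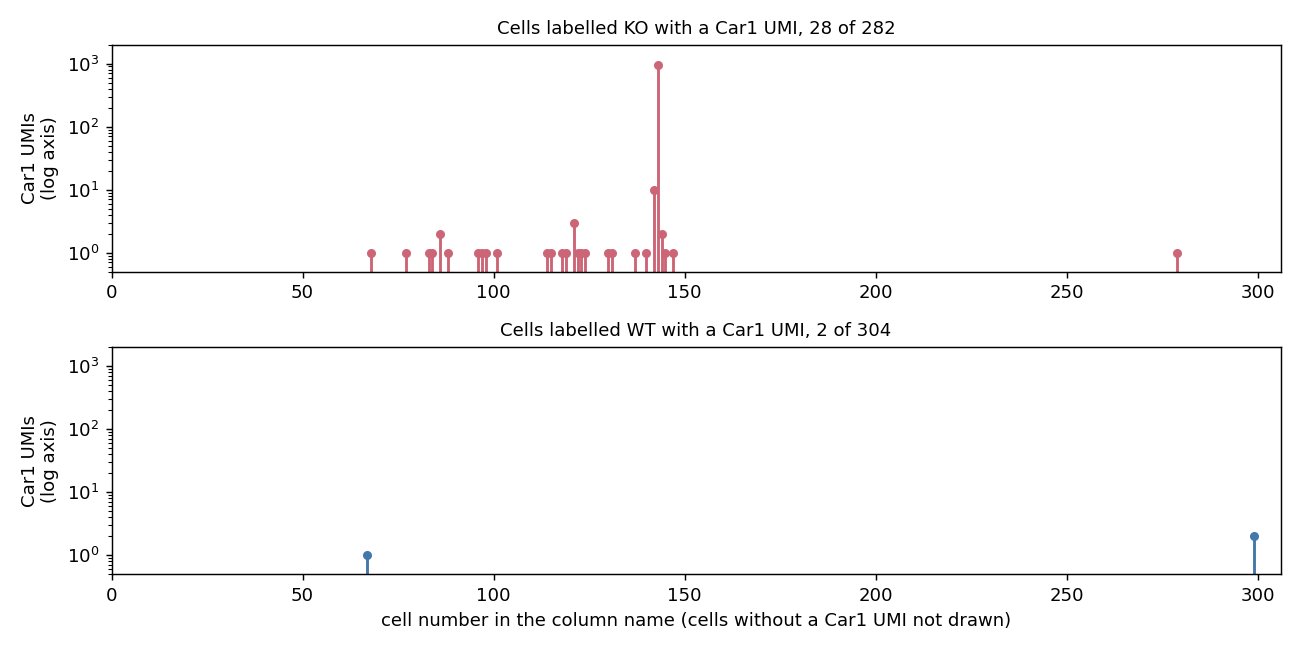
Car1 UMIs (log axis) of every cell with at least 1, by the cell number in its name, with KO cells above and WT cells below. Apart from cell 143 with 955 UMIs, the KO cells with Car1 sit between numbers 68 and 147, with 1 exception at 279.

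To compare cells at 1 depth, each kept cell was thinned to 20000 UMIs. A Car1 UMI was then seen in 1 of 259 WT cells (0.386%, interval 0.00977 to 2.13%) and in 16 of 234 KO cells (6.84%, interval 3.96 to 10.9%). Without thinning the shares were 0.772% and 9.40%. Zp3, an egg coat gene that blood cells should lack, was seen at the same thinned depth in 44.8% of WT cells and 8.12% of KO cells. The interval of the KO share of Car1 holds the KO share of Zp3, so a single Car1 UMI in a cell was not read as expression. With at least 2 UMIs required, 0.855% of KO cells and 0 of 259 WT cells had Car1, the latter allowing a share of up to 1.16%. The limit of 1.16% takes the count of 0 as 3 and is not an exact binomial limit. Without the KO cells numbered 68 to 147, 0 of 169 KO cells had Car1 after thinning. That run was drawn from the Car1 counts themselves, so a share near 0 outside it was fixed in advance and no limit is given.

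The gene is on chromosome 3 in a row of carbonic anhydrase genes, in the order Car13, Car1, Car3, Car2 (order from RefSeq, GRCm38.p6). Car13 and Car3 did not share its pattern. Cell 143 had no Car13 or Car3 UMI, whereas it held 428 UMIs of Car2. The pooled log2 ratio was 1.43 for Car13 (112 WT and 227 KO UMIs) and -1.07 for Car3 (729 and 262). Neither call held throughout, since Car13 was 0.76 without its top cell, and Car3 was -0.82 without its top cell, -0.65 without the oocyte-rich cells and -0.43 after thinning. Of the 16 carbonic anhydrase genes listed, 7 were in the table, and 2 were at least 2-fold higher, 1 lower and 4 within 2-fold, where 6.98% of all genes were higher and 7.94% lower. With every gene's top cell removed, 1 was higher (Car1) and none lower.

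Car2 was the most abundant of the 8 genes and was found in 258 of 259 WT cells and in all 234 KO cells. Per cell, Car2 ran from 0 to 5956 CPM in WT cells (median 1130 CPM) and had a median of 1012 CPM and a highest level of 4402 CPM in KO cells. The ranges overlapped almost entirely. The pools held 31497 and 17739 Car2 UMIs, a log2 ratio of -0.42 (interval -0.45 to -0.39), and -0.53 without the cells rich in oocyte transcripts. Cell 143 had the highest Car2 level per UMI of all KO cells, 4402 CPM from 428 UMIs, with 2 WT cells above it.

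Gata1, Klf1 and Epor were lower in the KO pool, although the 2-fold call of Epor was lost without its top cell and after thinning. Their promoter sequences are shown here because these were the listed genes at least 2-fold lower, a choice made from these same values. Shared regulation of these genes was not tested. The 130 bases before each transcription start are given 5′ to 3′ along the gene (RefSeq, GRCm38.p6): Klf1 at chr8:84901852-84901981 on the plus strand, Epor at chr9:21963577-21963706 on the minus strand and Gata1 at chrX:7967911-7968040 on the minus strand. Capitals mark GATAA, the core letters bound by GATA factors, and CACCC, the core letters bound by Klf1, each on either strand.
Klf1: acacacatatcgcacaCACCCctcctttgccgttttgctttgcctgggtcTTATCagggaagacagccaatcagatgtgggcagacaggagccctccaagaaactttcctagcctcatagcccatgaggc
Epor: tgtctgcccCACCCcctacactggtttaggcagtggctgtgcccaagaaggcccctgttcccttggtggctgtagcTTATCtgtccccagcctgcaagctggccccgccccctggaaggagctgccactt
Gata1: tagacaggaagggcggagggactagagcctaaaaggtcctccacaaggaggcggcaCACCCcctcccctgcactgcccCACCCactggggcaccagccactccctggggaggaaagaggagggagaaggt

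The promoter table held 7 of the 10 listed genes, and Car1, Car2 and Hbb-b1 had no entry. In the 250 bases before the start, GATAA occurred once each for Klf1, Epor, Gfi1b and Hba-a1, and not for Gata1, Zfpm1 or Tfrc. Over all 32817 windows of that length in the table, 22.6% held GATAA and 52% held CACCC on either strand. CACCC was found in every window of these 7 genes. The 2 motifs share no letters where they were found, and a match is a string of letters, not a shown binding site.

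Gata1, the master factor of the erythroid and megakaryocyte lineages, was found in 72 WT and 19 KO cells. The median cell of each label had none, and the highest had 120 UMIs in WT (cell 216) and 98 in KO (cell 125). The pools held 660 and 177 Gata1 UMIs, or 30.7 and 10.9 CPM, a log2 ratio of -1.49 (interval -1.74 to -1.25). More than 50% of the KO count came from cell 125 (55.4%), and without the top cell of each label the log2 ratio was -2.37 (540 and 79 UMIs, interval -2.73 to -2.03). Without only WT cell 216, the top cell of the gene, the log2 ratio was -1.23 (interval -1.48 to -0.98). At 20000 UMIs per cell, Gata1 was seen in 17.0% of WT cells (44 cells, interval 12.6 to 22.1%) and 4.70% of KO cells (11 cells, interval 2.37 to 8.26%). The difference of -12.3 percentage points can be read against all genes, of which 4.12% had a share at least 10 points lower in KO. Gata1 was the only one of the 8 genes past that mark. The Zp3 shares at this depth (44.8% and 8.12%) were higher than these under both labels, so a single Gata1 UMI in a cell is not read as expression. With at least 2 UMIs required, 9.65% of WT cells and 1.71% of KO cells had Gata1, and without the oocyte-rich cells the shares at 1 UMI were 18.1% and 4.74%.

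Klf1, the factor that switches on adult globin and membrane genes, was found in 13 WT and 3 KO cells. The median cell of each label had none, and the highest had 53 UMIs in WT and 37 in KO. The WT count of 213 was not 1 cell's: the top 3 WT cells (219, 216 and 11) had 53, 48 and 43 UMIs. In the KO pool, 37 of 39 Klf1 UMIs (94.9%) were in the Car1 cell. The pooled log2 ratio was -2.04 (interval -2.57 to -1.54), and without cell 143 it was -6.32 on 213 against 2 UMIs (interval -9.37 to -4.45). Without only WT cell 219, the top cell of the gene, the log2 ratio was -1.63 (interval -2.17 to -1.12). Cells 219, 216 and 11 held no Car1 UMI, although Klf1 in cell 219 stood at 1470 CPM against 381 CPM in cell 143. At 20000 UMIs, Klf1 was seen in 10 WT cells (3.86%, interval 1.87 to 6.99%) and 1 KO cell (0.427%, interval 0.0108 to 2.36%), the latter being 1 of 234. These intervals overlap.

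Epor, the erythropoietin receptor, was found in 44 WT and 15 KO cells, and again the median cell had none. The highest WT cell had 199 Epor UMIs (cell 218, 43.3% of the WT count) and the highest KO cell had 20. The pools held 460 and 112 Epor UMIs, a log2 ratio of -1.63 (interval -1.94 to -1.33). That ratio leaned on cell 218, since without it the value was -0.83 (interval -1.16 to -0.51) and no longer past 2-fold, and with every cell thinned to 20000 UMIs it was -0.66. At that depth, Epor was seen in 10.8% of WT cells (interval 7.30 to 15.2%) and 5.56% of KO cells (interval 2.99 to 9.31%), and the intervals overlap. With at least 2 UMIs the Epor shares were 5.02% and 3.42%.

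The remaining erythroid genes differed little between the pools. Tfrc had 249 WT and 282 KO UMIs in 41 and 29 cells (log2 ratio 0.59, interval 0.34 to 0.84). Zfpm1 had 1383 and 1172 UMIs in 137 and 120 cells (log2 ratio 0.17, interval 0.06 to 0.28). Without the oocyte-rich cells the value for Zfpm1 was -0.00079. Gfi1b had 920 and 793 UMIs in 118 and 83 cells (log2 ratio 0.19, interval 0.06 to 0.33), and the KO count included 134 UMIs of cell 208, without which the ratio was -0.06. At 20000 UMIs the shares of cells with Tfrc, Zfpm1 and Gfi1b were 9.65, 33.6 and 27.4% in WT and 10.3, 38.0 and 25.6% in KO.

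**Figure D3:**
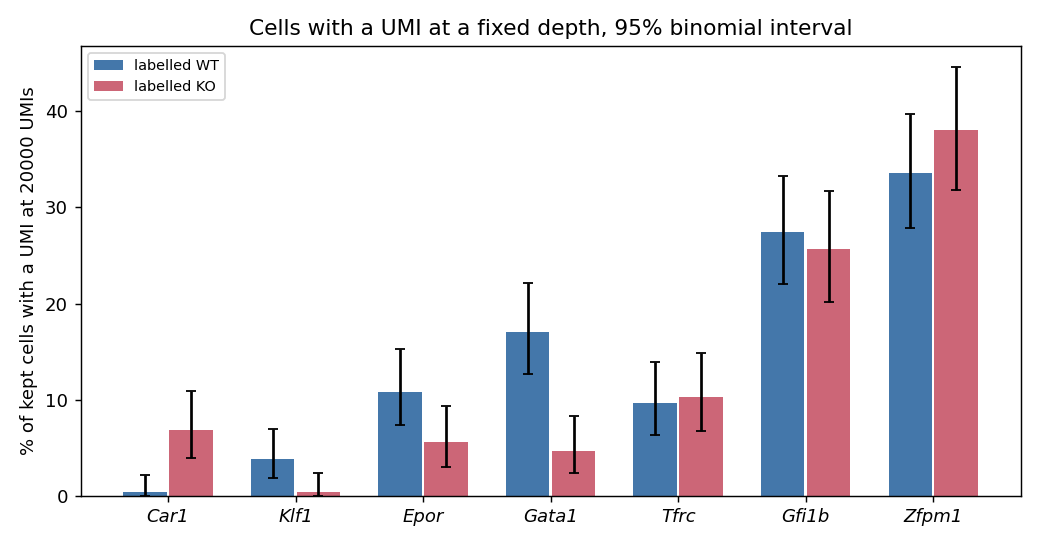
Percentage of kept cells with at least 1 UMI of each gene after thinning every cell to 20000 UMIs, with 95% exact binomial intervals, for 259 WT and 234 KO cells (Car2, in nearly every cell, is left out). Gata1 shows the widest gap, 17.0% against 4.70%. The intervals of the labels do not overlap for Gata1 and Car1, while those of Klf1, Epor, Tfrc, Gfi1b and Zfpm1 do.

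Of the 8 genes, 3 were at least 2-fold lower in the KO pool and 1 was at least 2-fold higher, where 7.94% of all genes were lower and 6.98% higher. Their median log2 ratio was -0.13, against 0.02 over all genes. Without the top cell of each label for each gene, 3 were still lower and 1 higher, against 9.14% and 7.12% of all genes. Without only the single top cell of each gene, Epor dropped out, leaving 2 lower and 1 higher, against 6.84% and 6.39%. Cells with Gata1 were deeper than the rest, with a median total of 82718 against 52632 UMIs in WT and 104749 against 48720 in KO. For Epor these were 76366 against 53048 in WT, while WT cells with Klf1 (55200) were not deeper than those without (59840).

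**Figure D4:**
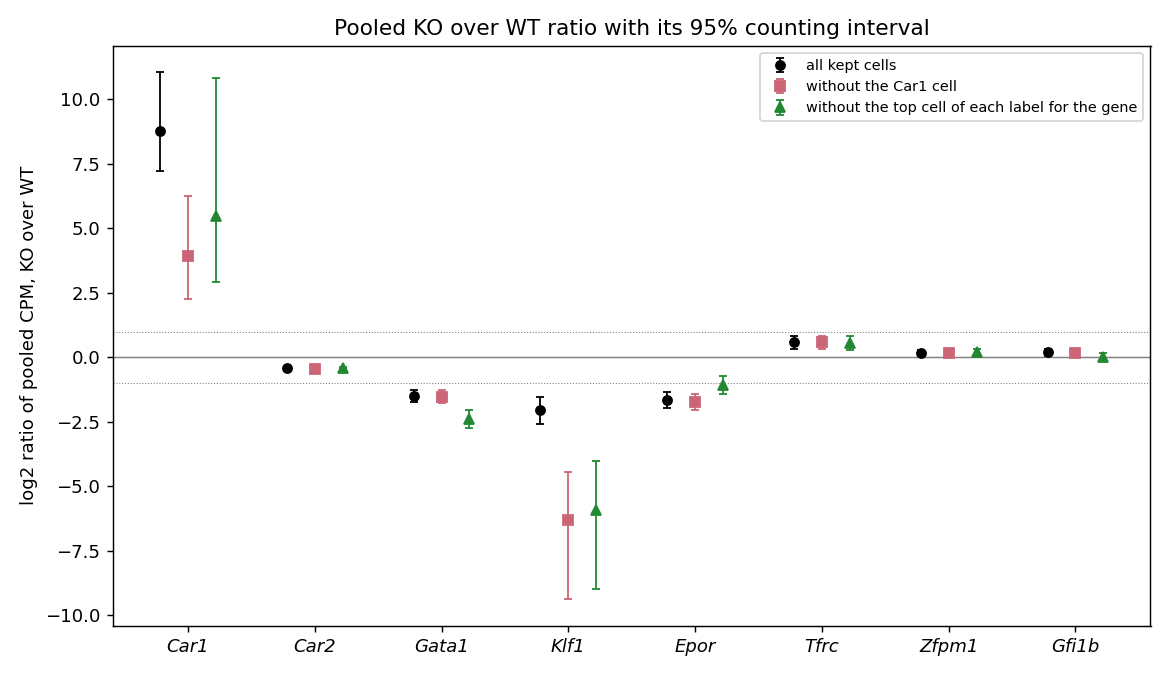
Log2 ratio of pooled CPM, KO over WT, for each gene with its 95% counting interval, from all kept cells (black circles), without the Car1 cell (red squares) and without the gene's top cell in each label (green triangles). Dotted lines mark 2-fold, and leaving out the Car1 cell moves Car1 from 8.77 to 3.92 and Klf1 from -2.04 to -6.32.

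Cells with Klf1 or Epor more often had Gata1 than kept cells at large, with 1 UMI counted as found. Of the 16 kept cells with Klf1, 11 had Gata1 (68.8%), whereas 18.5% of all kept cells did. Of the 59 cells with Epor, 26 had Gata1 (44.1%). Klf1 and Epor met in only 5 cells, and in 3 after thinning. After thinning, at least 2 of the 3 genes were found in 16 WT cells (6.18%, interval 3.57 to 9.84%) and 3 KO cells (1.28%, interval 0.265 to 3.70%). All 3 genes were found in 2 WT cells and 0 KO cells. Gata1 was also joined by its partners, since 61 of 91 cells with Gata1 had Gfi1b and 67 had Zfpm1, against 40.8% and 52.1% of all kept cells. Cells with Gata1 or Epor were also deeper, and the overlap is given as a description.

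The WT cells with the highest erythroid factors were not alike. Cell 219 (36064 UMIs) had Klf1 at 1470 CPM with 53 Aqp1 and 46 Icam4 UMIs, the red cell water channel and a red cell adhesion molecule, but no Gata1, Epor or Pf4. Cell 216 (367258 UMIs) combined 120 Gata1 and 48 Klf1 UMIs with 261 UMIs of Pf4, platelet factor 4, and 201 of the proliferation marker Mki67. Cell 218 (283713 UMIs) held 116 Gata1, 199 Epor and 1214 Car2 UMIs with 100 Pf4 UMIs. The KO cell with the most Gata1, cell 125, had 260 Pf4 and 59 Itga2b UMIs but no Klf1 or Epor. Cell 143 had 1 UMI each of Pf4 and Itga2b, the integrin subunit of megakaryocytes.

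Cell 143 differed from the other cells in far more than Car1. It had 97232 UMIs and 4141 genes, with 48 of the other 233 kept KO cells deeper. Among the 8 genes it held 955 Car1, 428 Car2, 37 Klf1, 13 Gfi1b, 12 Zfpm1, 8 Epor, 5 Gata1 and 3 Tfrc UMIs. No other KO cell had higher Car1, Car2 or Klf1 CPM, whereas 7 had higher Gata1, 7 higher Epor, 23 higher Tfrc, 23 higher Gfi1b and 39 higher Zfpm1. After thinning to 20000 UMIs, 6 of the 7 genes other than Car1 were found in it, while the other KO cells had 1 to 5 of them (median 2). Among the WT cells, 2 had at least 6 of the 7.

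The cell's own top genes went beyond the list. Relative to the other KO cells pooled, and among genes with at least 20 UMIs in it, the 10 highest were Mt2, Car1, Klf1, Snhg11, Mt1, Tspan33, Usp2, Jcad, Lrrc20 and Samd14. Mt2 and Mt1, metallothioneins that bind zinc and copper, had 105 and 142 UMIs in the cell against 3 and 98 in the 233 others. Mt1 and Mt2 were not rare in WT cells, with 1911 and 311 UMIs. Tspan33, a tetraspanin of erythroid progenitors, had 41 UMIs against 33 in the others together. Snhg11, a non-coding host transcript, had 72 against 36.

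Some wider erythroid gene groups were high in this cell as well. The erythroid progenitor markers, which include Klf1, Epor and Gata1 and here leave out Car1, summed to 2530 CPM (interval 2224 to 2867), above every other KO cell (median 19.0 CPM, highest 762 CPM), and 1 WT cell was higher. The heme transport and breakdown genes summed to 1790 CPM with Blvrb at 132 of 174 UMIs, and heme synthesis genes to 1142 CPM with Alad at 46 and Urod at 36 UMIs. In each of these heme lists 1 other KO cell had a higher sum. Blvrb is also among the erythroid progenitor markers, where it made up 132 of 246 UMIs, so those sums share 1 gene that weighs heavily. The heme synthesis sum came from part of the list, since 4 of its 8 genes (Alas1, Uros, Ppox and Fech) were at 0 in this cell. After thinning to 20000 UMIs, 3 of the 8 were found in it, and 71 other KO cells had at least 3. The iron genes (7806 CPM, median of the others 7358) and erythropoietin signalling genes (802 against 809 CPM) were at the usual level. The erythroid transcription factors summed to 1944 CPM, with 190 KO cells higher, and Gata2, a factor of stem and progenitor cells, was at 0.

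**Figure D5:**
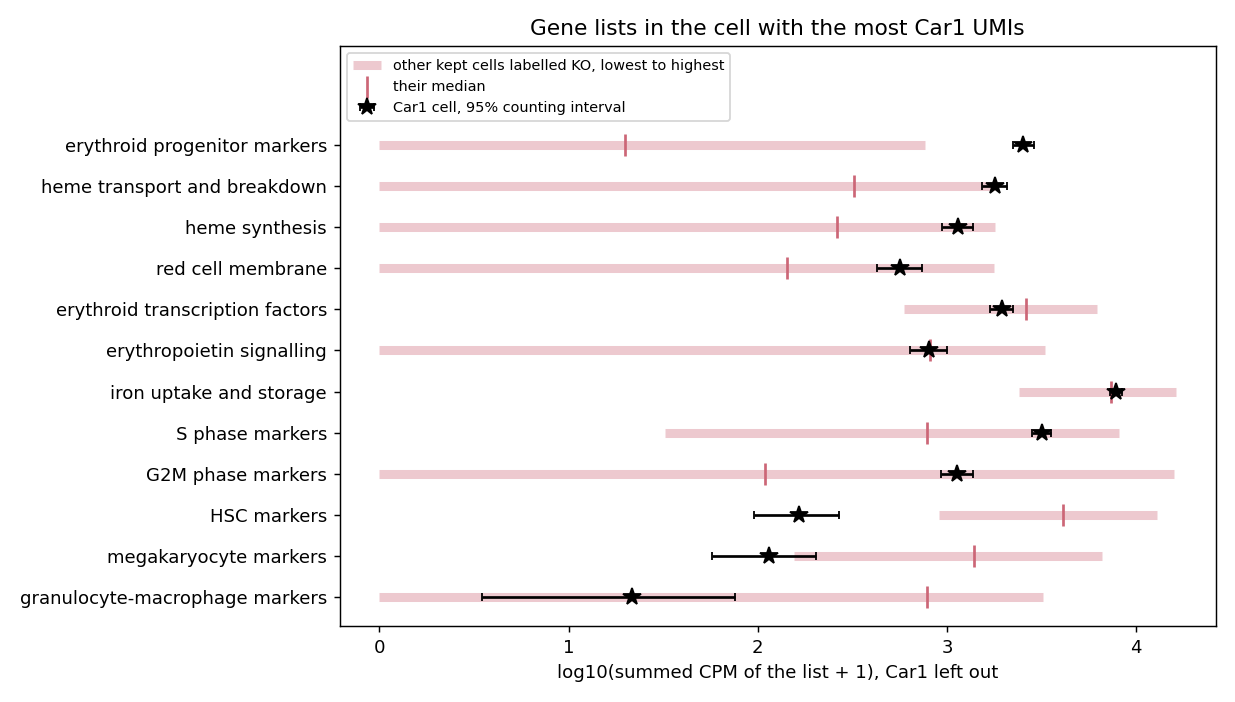
Summed CPM of gene lists, as log10(CPM + 1) with Car1 left out, in the cell with the most Car1 UMIs (black stars, 95% counting interval) and in the other 233 kept KO cells (red bars from lowest to highest, tick at the median). The star lies right of the bar for erythroid progenitor markers (2530 CPM against at most 762) and left of it for HSC markers (165 against at least 900).

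Genes that mark the sorted population were close to absent from cell 143. The 16 HSC markers summed to 165 CPM (interval 94.1 to 267), lower than in each of the other 233 KO cells (900 to 12935 CPM, median 4100) and each of the 259 WT cells. Of the 16 markers, 11 were at 0, among them Hlf, Mllt3, Hoxa9 and Procr, which were seen in 54.9 to 67.8% of the other KO cells at 20000 UMIs. Ifitm1 and Meis1 had 5 UMIs each, against medians of 95 and 18 in the other KO cells. On the summed list, the label of an HSC is not borne out in this cell. Of the sorting gate genes, Kit and Ly6a (Sca-1) had 2 and 1 UMIs against medians of 3 and 2 in the other KO cells. Those cells had a median total of 50178 UMIs against 97232 in cell 143. Relative to depth, both genes therefore lay further below the other cells than the raw counts show. Slamf1 (CD150), at 0, was seen in 5.15% of the others. The megakaryocyte markers summed to 113 CPM, below every other KO cell (lowest 154), with 12 of 16 at 0. The granulocyte-macrophage markers had 2 UMIs in all, both of Prtn3. The S phase genes summed to 3157 CPM, with 34 KO cells higher, and the G2M phase genes to 1131 CPM, with 22 higher. The oocyte list had 2 UMIs in it.

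The wider erythroid lists showed no general shift between the pools. Outside the 8 genes, 61 genes for erythroid transcription factors, erythropoietin signalling, heme, iron, the red cell membrane and erythroid progenitors were in the table. Their median log2 ratio was 0.15, against 0.02 over all genes. Of the 61, 6 were at least 2-fold higher in the KO pool, 3 lower and 52 within 2-fold, where 6.98% of all genes were higher and 7.94% lower. With the members counted, 5 of 8 erythroid progenitor markers were lower (Klf1, Aqp1, Epor, Mfsd2b and Gata1) and 1 higher (Car1), with a median of -1.50. Of the 5 red cell membrane genes, 2 were lower and none higher. The 19 erythroid transcription factors had 2 lower and 2 higher, and the 7 heme transport and breakdown genes had 1 higher and none lower. None of the 12 globin genes listed was in the table.

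The 3 lower genes were Aqp1, Icam4 and Mfsd2b. Aqp1 had 673 WT and 143 KO UMIs (log2 ratio -1.83), and Icam4 had 995 and 325 (-1.21, and -1.48 without the oocyte-rich cells). Mfsd2b, a lipid transporter of red cells and platelets, had 355 and 94 (-1.51). Of the 94 KO UMIs of Mfsd2b, 87 were in cell 66, and without the top cell of each label the log2 ratio was -5.10. Mfsd2b was found in 50 WT cells and 6 KO cells.

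The 6 higher genes were Socs3, Pim1, Cbl, Hmox1, Sox6 and Ikzf1, and with every gene's top cell removed 3 of the 61 were higher and 3 lower, against 6.39% and 6.84% of all genes. Socs3, a feedback inhibitor of cytokine signals, had 80 WT and 234 KO UMIs (log2 ratio 1.96). Pim1, a kinase induced by STAT5, had 282 and 655 (1.62). Cbl, a ubiquitin ligase that acts on activated receptors, had 310 and 493 (1.08), and 0.76 without its top cell. Hmox1, which breaks down heme, had 77 and 142 (1.29), but 0.79 without its top cell and 0.88 without the oocyte-rich cells. The transcription factors Sox6 and Ikzf1 had log2 ratios of 1.10 and 1.04, and these were 0.97 and 0.99 without the top cell of each. Of the 14 erythropoietin signalling genes, all in the table, 3 were higher by 2-fold and 1 lower, where 6.98% and 7.94% of all genes were. The lower gene was Epor, whose call was lost without its top cell. Heme synthesis, with 8 of 9 genes in the table, had none past 2-fold in either direction (median -0.24), and neither had iron uptake and storage, with 12 of 14 (median 0.19).

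Genes of other lineages differed between the pools too. The granulocyte-macrophage markers summed to 390 CPM in the WT pool and 874 CPM in the KO pool, with 5 of 9 at least 2-fold higher and none lower, where 6.98% of all genes were higher and 7.94% lower. The megakaryocyte markers summed to 1589 and 1706 CPM, with 3 of 16 higher and 3 lower. The HSC markers summed to 4050 and 4111 CPM, with 1 of 16 higher by 2-fold and 2 lower (Slamf1 at -2.26 and Esam at -1.39). The G2M phase genes summed to 1472 and 955 CPM. Their part in the difference in Gata1, Klf1 and Epor was not tested.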

How the data were processed

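Bone marrow HSCs were profiled by single-cell RNA-seq in 8 libraries, 4 per genotype. The authors split reads by cell barcode, aligned them to the mm9 transcriptome (aligner not given in the sources used here), removed duplicates by UMI, and dropped genes with low average counts. The deposited values are log2 of a normalized UMI count plus 1. With the log2 undone, the values of each cell were whole multiples of its smallest value (tolerance 0.01), which gave back UMI counts. Totals cover the genes in the table, so 93 of the 586 cells lay below the limits of 2000 genes and 20000 UMIs and were left out.

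UMIs were summed per label. Ratios have exact intervals from the 2 counts, shares exact binomial intervals, and CPM exact Poisson intervals, all at 95%. A count of 0 was raised to 3 in ratios and in the upper limit stated for a share of 0. At least 2-fold counts as called. The ratio and its interval were tested on simulated Poisson counts of 2 pools, without differences between cells. That test therefore does not cover genes whose UMIs lie mostly in 1 cell. Python 3.11.15, numpy 2.4.6, pandas 2.3.3 and scipy 1.17.1 were used. No doublet caller was run on these hand-picked cells, and the cell names hold no barcodes that could be compared between libraries. The genes and lists were chosen with earlier results of these data known. Genes named in the text are the members; genes of the wider lists past 2-fold with at least 20 UMIs; the 10 genes highest in the Car1 cell; the 5 most like the members; and Med23. Zp3 was set beside the shares by design. Cells other than the Car1 cell, genes in them, and marker or list genes given for the Car1 cell (such as Blvrb, Alad, Urod, Gata2, Hlf, Mllt3, Hoxa9, Procr, Ifitm1, Meis1, Kit, Ly6a and Prtn3) or for the pools (Slamf1 and Esam) were named after their values were seen. Intervals cover counting error only.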

Additional observations from a re-analysis of the deposited data

How the results depend on the processing

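No paired analysis was possible because the cell names carry no library or replicate number, and leaving out each library in turn could not be run for the same reason. The Car1 log2 ratio was positive in all alternatives run. It was 3.92 without the cell with the most Car1 UMIs, the same 3.92 when every gene lost its top cell, and 5.50 when it lost 1 in each label (an alternative chosen after seeing the data). The difference in mean log2(CPM/100 + 1) per cell was 0.058 for Car1, a scale on which single cells weigh little.

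The median log2 ratio of the 8 genes was -0.27 without oocyte-rich cells, -0.46 on means of normalized values, -0.22 with every gene's top cell removed and -0.046 on the mean log scale. The summed log2 ratio, which is mostly Car2, was -0.32 and moved to -0.42 without the Car1 cell, -0.44 without oocyte-rich cells, -0.27 after thinning, -0.35 with median-of-ratios and -0.35 with TMM scaling, -0.37 on normalized values, -0.17 on the mean log scale, -0.28 without the top cell and -0.37 without the top cell of each label. The median of the wider lists was -0.0015 on normalized values.

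The Car1 share difference of 6.45 percentage points was 2.14 at 10000 UMIs per cell, 0.855 at 2 UMIs or more and reversed to -0.386 without KO cells 68 to 147 (chosen after seeing the data). Gata1 stayed between -2.37 and -1.23 as a ratio and Klf1 between -6.32 and -1.42. Epor lost its 2-fold call after thinning (-0.66) and without its top cell (-0.83). On normalized values the sign changed for Gfi1b (-0.41) and Zfpm1 (-0.08). Other causes were not tested.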

Other observations

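The 5 genes whose level across the 492 kept cells other than the Car1 cell followed the mean of the 8 genes most closely were Mfsd2b (Pearson r 0.32), Aqp1 (0.28), H2afz (0.28), Cavin2 (0.27) and Icam4 (0.27), out of 9317 genes that averaged 0.5 UMI or more. The points share depth, and the correlations are weak in sparse counts. Mfsd2b and Cavin2, a caveola protein, had no UMI in the Car1 cell, whereas Aqp1 and Icam4 had 23 each. H2afz, a histone variant, had 289.

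Between single genes of the list, the highest correlations across the same 492 cells were those of Epor with Gata1 (r 0.29), Gata1 with Gfi1b (0.28) and Gata1 with Klf1 (0.20). Car1 had r between -0.06 and 0.01 with each of the other 7. All 3 pairs include Gata1, and the values are descriptions over cells that share libraries.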
